A study of Mus musculus with 7 samples.

Results

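The regions described here are stretches of the mouse genome where a vitamin D receptor (VDR) peak was called in 1 library of the study and in none of the other 5. That library is 1,25(OH)2D3 replicate 3, the most deeply sequenced of the hormone-treated libraries. Peaks of the 6 libraries on chromosomes 1 to 19 and X were merged wherever they overlapped by at least 1 bp, and a merged region was kept where only 1,25(OH)2D3 replicate 3 had a peak. This left 12727 of 86995 merged regions (14.6%), called H3-only regions below, and they made up 30.5% of the 41703 regions of that library. The members were therefore chosen from the peak calls themselves, so their presence in this library and absence from the others is a description and has no replicate check.

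Chromatin bound by VDR had been immunoprecipitated and sequenced (ChIP-seq) from epithelial cells released with EDTA from duodenum and jejunum of wild-type mice aged 8 weeks on standard chow. Mice had received vehicle (3 libraries) or the active hormone 1,25(OH)2D3 (3 libraries), dosed at 10 ng for each g of body weight, and were sampled 1 h later. The same single input library, labelled with the hormone dose, was the control for every peak call. Whether each library was its own mouse is not given in the labels, so a p-value here measures the spread between libraries, which may be technical. EDTA release is not a sort, and because the lists hold no expression values, the cell type could not be checked against transcripts of its markers.

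VDR is a nuclear receptor that binds DNA as a partner of the retinoid X receptor (RXR). The pair favours DR3 elements, direct repeats of a hexamer separated by a spacer of 3 bp. In the small intestine the receptor is best known for raising genes of calcium absorption, such as Trpv6 and S100g, and Cyp24a1, which inactivates the hormone.

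Depth set replicate 3 of each group apart from the rest. 1,25(OH)2D3 replicate 3 held 66524392 tags and vehicle replicate 3 held 68560701, while the other 4 libraries held 15991198 to 19733260. The tag count needed for a call was 20 in 1,25(OH)2D3 replicate 3, or 3.01 per 10000000 tags. It was 2.48 on that scale in vehicle replicate 3 and 5.57 to 6.31 in the 4 shallow libraries. Up to 3 tags per base were counted in the deep libraries and 1 in the shallow ones. Regions found in a single library numbered 32150 in vehicle replicate 3 (V3-only regions below), 12727 in 1,25(OH)2D3 replicate 3, 3560 and 3108 in 1,25(OH)2D3 replicates 2 and 1, and 2056 and 842 in vehicle replicates 2 and 1. How far depth, rather than treatment, set membership was not tested with reads. The labels name 2 sequencers without saying which libraries ran on which, so a difference in run cannot be told apart from depth. With every list cut from its top to the length of the shortest, 398 H3-only regions were left, and with the list of 1,25(OH)2D3 replicate 3 alone cut to the length of the longer of the other two hormone lists there were 4221.

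A DR3 element was searched on both strands, within 100 bp of the centre of each region, as a pair of hexamers of 6 letters with 3 free letters between them. Each hexamer reads A or G, then G, then G or T, then T, then C or G, then A. An element counted with at most 1 mismatch in the 12 fixed letters. Of the H3-only regions with 0 mismatches, several of those placed highest among them are shown first, since they match the receptor's known motif in full. Each line gives the nearest protein-coding gene and 55 bases of build mm9, 5′ to 3′ on the strand named, with the element in capitals.
Coro1c, chr5:114359266-114359320, minus strand: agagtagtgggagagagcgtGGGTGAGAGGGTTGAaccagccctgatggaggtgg
Frat2, chr19:41911760-41911814, minus strand: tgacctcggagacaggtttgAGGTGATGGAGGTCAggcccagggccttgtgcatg
Trim33, chr3:103190841-103190895, minus strand: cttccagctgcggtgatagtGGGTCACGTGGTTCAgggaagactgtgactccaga
Slc38a2, chr15:96539907-96539961, plus strand: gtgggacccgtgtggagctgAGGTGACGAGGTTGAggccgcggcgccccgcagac
Slc7a1, chr5:149211853-149211907, plus strand: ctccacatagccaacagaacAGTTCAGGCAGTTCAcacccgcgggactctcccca
Rmnd5a, chr6:71408691-71408745, plus strand: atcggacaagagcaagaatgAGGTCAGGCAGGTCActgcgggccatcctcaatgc
Efna4, chr3:89141223-89141277, plus strand: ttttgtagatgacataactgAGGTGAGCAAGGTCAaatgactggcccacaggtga

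These elements lay near genes of varied function. The Coro1c element, next to an actin-binding coronin, was in a region centred 0.517 kb upstream of the gene's outermost start. The Slc7a1 element, at a transporter of cationic amino acids, was in a region 0.353 kb upstream, and that of Efna4, a membrane-bound ephrin ligand, in a region 0.776 kb inside the gene. Slc38a2 encodes a transporter of neutral amino acids, and its region lay 9.77 kb upstream. Frat2, which binds the kinase GSK3 in Wnt signalling, had its region 10.9 kb past its start. The regions of Rmnd5a and Trim33 were between genes, 18.03 and 107.6 kb from the nearest start. Another region, 7.47 kb upstream of E230025N22Rik, is named only. Their places in the list ran from a percentile of 86.4 for Coro1c to 47.9 for Efna4, where 100 is the first peak listed.

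DR3 elements were more frequent in H3-only regions than in the DNA beside them. With at most 1 mismatch, 1618 of 12727 (12.7%, 95% Wilson interval 12.1% to 13.3%) held one, against 514 (4.04%, 3.71% to 4.39%) of the windows of the same size placed 5 kb to the right. Elements with 0 mismatches were in 280 regions (2.20%, 1.96% to 2.47%) and in 20 of the windows beside them (0.157%, 0.102% to 0.243%). V3-only regions came from a library of similar depth, in which about 8.1% of tags were in peaks against 18.96% in 1,25(OH)2D3 replicate 3. They held an element in 4.13% (3.92% to 4.35%), close to the 3.92% of their own flanks, and an element with 0 mismatches in 0.311%. The part of the share of tags in peaks in this comparison was not tested. Over all 86995 regions of the series the share with at most 1 mismatch was 10.9%. These intervals cover counting error only.

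The same measure was compared between groups over libraries, using the regions found in 1 library only. With vehicle, 5.70% of single-library regions held DR3 in replicate 1, 5.35% in replicate 2 and 4.13% in replicate 3. With 1,25(OH)2D3 the shares were 12.8%, 8.06% and 12.7%. All 3 hormone libraries were above all 3 vehicle libraries, with means of 11.2% ± 2.70 and 5.06% ± 0.826 (SD, n = 3 each). The difference was 6.12 percentage points (exact two-sided permutation p = 0.1, the smallest that 3 against 3 can give; 0.3 after Benjamini-Hochberg adjustment over the 3 group comparisons made). It was 8.59 points between the deep libraries and 4.89 points between the means of the shallow ones. In windows 5 kb away the shares stayed between 3.75% and 4.60% in all 6 libraries. The 6 values depend on each other, because a region counted for 1 library had to be absent from the other 5. Vehicle regions were screened by all 3 hormone lists, and hormone regions by only 2 of them. This limit applies to all 3 group comparisons, and how far it set the differences was not tested.

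**Figure D1:**
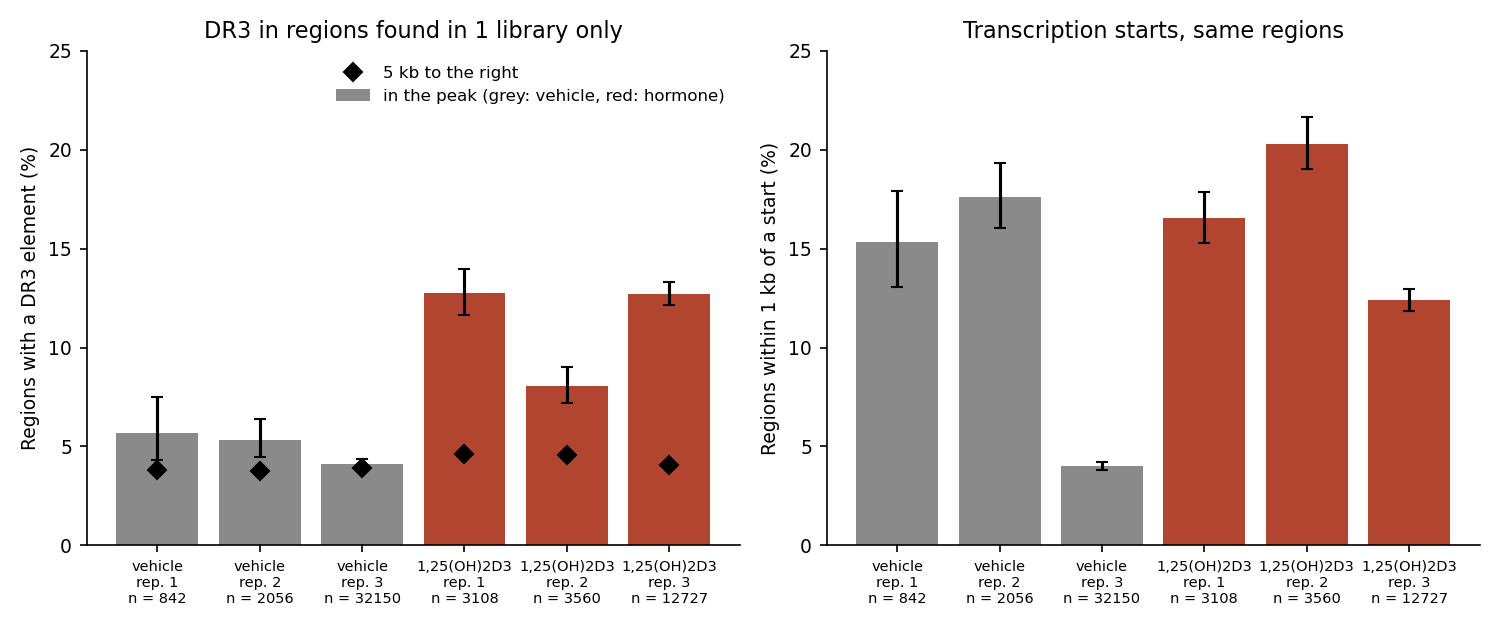
Regions found in 1 library only, by library (grey vehicle, red 1,25(OH)2D3, number of regions under each bar). The left panel gives the percent with a DR3 element in the peak (bars) and 5 kb to the right (diamonds), the right panel the percent within 1 kb of a transcription start; error bars are 95% Wilson intervals. The 3 hormone bars in the left panel are at 8.06% to 12.8% and the vehicle bars at 4.13% to 5.70%, while in the right panel the groups overlap.

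H3-only regions held DR3 less often than the regions that 1,25(OH)2D3 replicate 3 shared with another library, of which 18.5% (18.03% to 18.9%) had an element. Within the shared regions, the share was 14.95% (14.0% to 16.0%) where exactly 1 other hormone library and no vehicle library had a peak. It was 15.2% (13.5% to 17.2%) where only replicate 3 of both groups had one, and 20.5% (19.4% to 21.7%) where all 3 hormone libraries and no vehicle library did. Regions of all 6 libraries held it in 28.1% (26.8% to 29.5%). The H3-only share was thus the lowest of these classes, and the single-library regions of 1,25(OH)2D3 replicates 1 and 2 were at 12.8% (11.6% to 14.0%) and 8.06% (7.21% to 9.002%).

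The spacing of the repeat was examined by placing the same hexamers 0 to 8 bp apart. In H3-only regions the spacer of 3 bp was the most frequent, at 12.7% against 4.04% in the flanks. The next was 1 bp, the DR1 arrangement bound by HNF4 and by PPAR with RXR, at 9.89% (9.39% to 10.4%) against 4.73%. Spacers of 2, 0 and 4 bp followed at 9.51%, 8.67% and 8.45%, and those of 5 to 8 bp lay between 6.65% and 7.02%, all above their flanks of 3.98% to 6.38%. Shared regions had the same leading pair, with 18.5% at 3 bp and 15.5% at 1 bp. V3-only regions had no such peak: their highest share was 5.50%, at 0 bp, where the flanks held 5.47%.

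**Figure D2:**
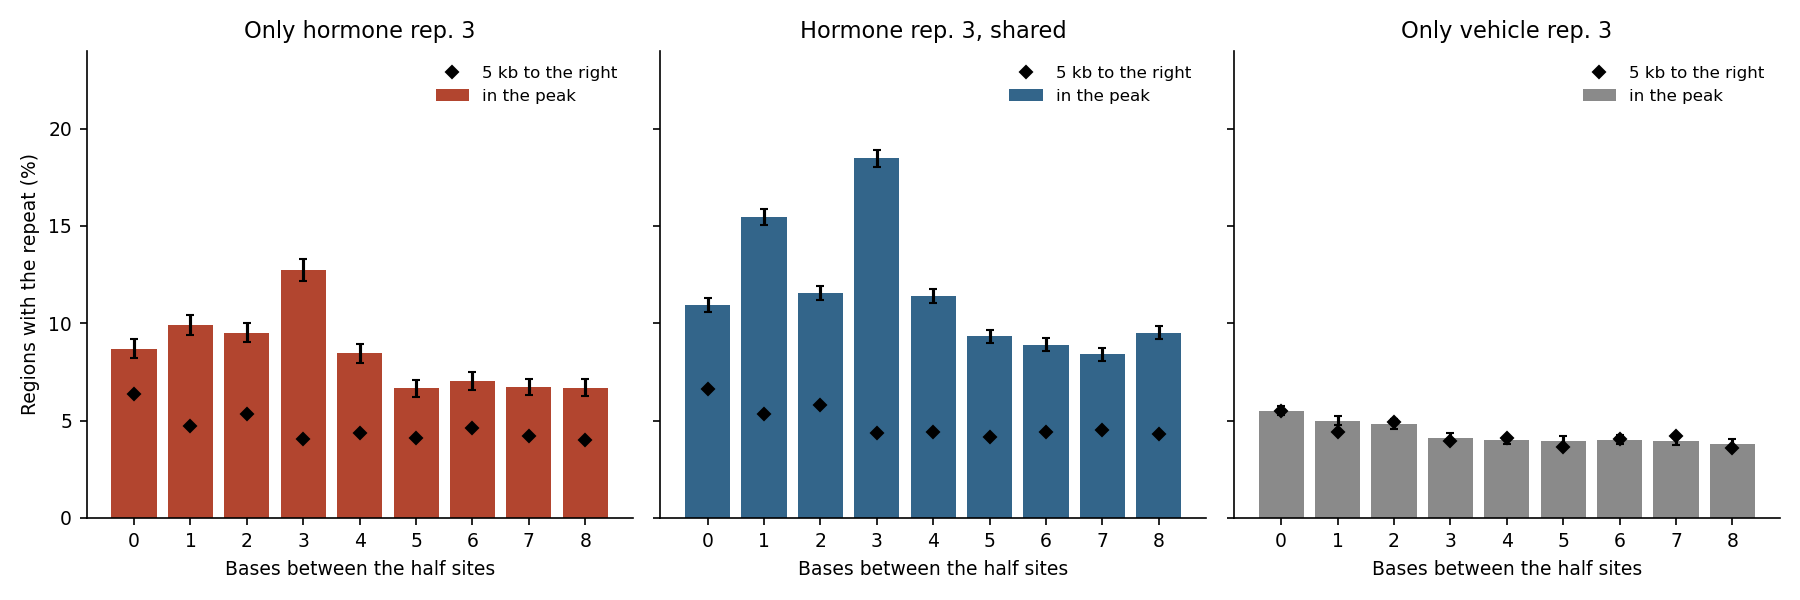
Percent of regions with the repeated hexamer at spacers of 0 to 8 bases, in H3-only regions, in regions of 1,25(OH)2D3 replicate 3 shared with any library, and in V3-only regions. Bars are peaks with 95% Wilson intervals and diamonds are windows 5 kb to the right; the bar at 3 bases is the highest in the first (12.7%) and second (18.5%) panels, and the third panel runs from 3.82% to 5.50% beside its diamonds.

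Elements in H3-only regions sat towards the peak centre. The median distance of the element from the centre was 37 bp in the 1618 regions with one, and 49 bp in the 514 flanking windows with one. In shared regions it was 33 bp, and in V3-only regions 46 bp. Of the H3-only elements, 33.4% were within 24 bp of the centre, against 25.5% in the flanks. Among the 280 elements with 0 mismatches, the first hexamer was most often AGGTCA (88, 31.4%), followed by AGTTCA (58, 20.7%) and GGGTCA (53, 18.9%). The second hexamer was most often AGTTCA (71, 25.4%) or GGTTCA (69, 24.6%), ahead of AGGTCA (54, 19.3%). Of the 1338 elements with 1 mismatch, 622 had it in the first hexamer and 716 in the second. Counted from the 5′ end of the element, position 13, the fourth letter of the second hexamer, was the most often mismatched (261, 19.5%), and position 15 was next (203, 15.2%).

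The place of a peak in its list stood in for its height, because the deposited lists analysed here hold no tag count per peak. What value orders the lists is not stated, so it is an assumption that earlier peaks are higher. H3-only regions were concentrated at the bottom. Their median list percentile was 17.5 (quartiles 8.27 and 34.8), against 63.2 for shared regions, and 70.4% of them were in the lowest 3 deciles of the list. With the list split into 10 deciles of equal size, the top one held 15 of them among 4171 peaks, the second 106 and the third 356. The last decile held 3816, or 91.5% of its peaks. Only a small share of this list's early peaks was therefore without a counterpart in another library.

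H3-only regions of the upper and lower list differed in kind. Those in the upper 5 deciles numbered 1798, of which 44.9% (42.7% to 47.2%) were within 1 kb of a transcription start and 6.79% (5.71% to 8.04%) held DR3. The 10929 in the lower 5 deciles were at starts in 7.05% (6.58% to 7.54%) and held DR3 in 13.7% (13.1% to 14.3%). By decile, the share at starts was 60.4% in the second, 63.8% in the third and fell to 3.90% in the last. The DR3 share was 20% in the first decile, on 3 of 15 regions (7.05% to 45.2%). It lay between 6.20% and 7.51% in the second to the sixth decile, was 17.1% in the eighth and was 11.9% in the last. Shared regions of the same deciles held DR3 more often in all 10, whether peaks were ordered by the list or by their number within the chromosome. The mean GC content of H3-only regions moved along with the position, from 56.5% in the third decile to 42.4% in the last, and its part in the result was not tested. In V3-only regions the DR3 share was between 3.74% and 4.56% in every decile of their list. The fall in starts and GC content was not particular to H3-only regions, and neither was a higher DR3 share in the lower list. Shared regions held DR3 in 17.66% in the upper 5 deciles and 20.05% in the lower 5. By decile, their DR3 share was 26.9% in the first, 13.5% in the fourth and 25.4% in the ninth. Shared regions were at starts in 20.4% in the upper 5 deciles and 8.81% in the lower 5. Their mean GC content was 49.4% in the first decile and 43.9% in the last. V3-only regions went from 47.7% at starts and 51.1% GC in the first decile of their list to 2.50% and 39.6% in the last.

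**Figure D3:**
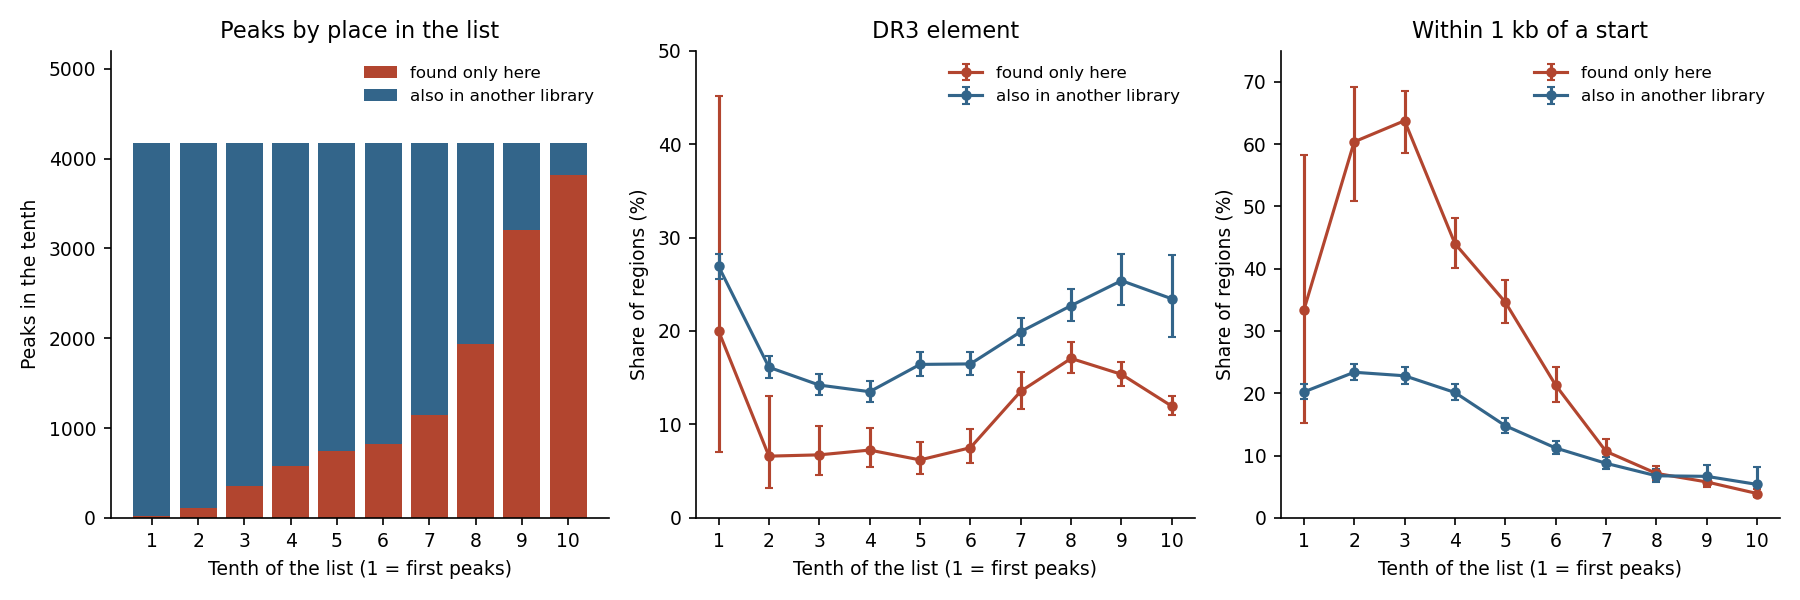
Peaks of 1,25(OH)2D3 replicate 3 by decile of its list (1 is the top), split into H3-only regions (red) and regions also found in another library (blue): number of peaks, percent with DR3 and percent within 1 kb of a transcription start, with 95% Wilson intervals. The red DR3 line is below the blue one in all 10 deciles; it is at 20% in the first, where it rests on 3 of 15 regions, and at 17.1% in the eighth, and the red start line falls from 63.8% to 3.90%.

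Of the 10 H3-only regions placed highest, several lay at gene starts. The first was 0.273 kb upstream of Gbf1, an exchange factor that acts at the Golgi, at a percentile of 95.2. Those of Usp22, a histone deubiquitinase, and Kdm1b, a histone demethylase, were 0.210 and 0.154 kb upstream, at percentiles of 92.97 and 92.4. Hook2, a linker of cargo to microtubules, had a region 0.821 kb upstream at 94.3. The Slc9a3r1 region was intronic, 1.78 kb into the gene of a scaffold protein of the brush border, and the Gata4 region was intronic, 35.5 kb into the gene of an intestinal transcription factor. The other 4 were 103.0 kb from Cyp26b1, a retinoic acid hydroxylase, 47.7 kb from Chd2, 19.4 kb from Sept5 and 9.91 kb from Ache. The Cyp26b1 region was in an intron of Exoc6b. Of the 5 highest at protein-coding starts, the fifth was 0.206 kb upstream of Tars, a threonyl-tRNA synthetase, at 90.6. Of these 11 regions, those of Usp22 and Gata4 held a DR3 element with 1 mismatch and the others had 2 or 3 mismatches.

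A pair of these start regions is shown in full, the 2 with the highest GC content of the 5, to show a DR3 element and KLF/SP matches at starts. The bases are mm9, 5′ to 3′ on the plus strand, with the DR3 element of 1 mismatch in capitals for Usp22 and matches of GGGCGGGG or its reverse complement, the KLF/SP motif, in capitals for Kdm1b.
Usp22, chr11:60988626-60988908, plus strand: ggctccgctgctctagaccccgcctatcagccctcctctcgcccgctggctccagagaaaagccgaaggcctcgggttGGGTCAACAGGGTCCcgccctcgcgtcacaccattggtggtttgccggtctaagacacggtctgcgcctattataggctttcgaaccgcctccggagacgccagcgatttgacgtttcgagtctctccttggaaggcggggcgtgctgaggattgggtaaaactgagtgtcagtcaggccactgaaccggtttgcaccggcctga
Kdm1b, chr13:47138573-47138855, plus strand: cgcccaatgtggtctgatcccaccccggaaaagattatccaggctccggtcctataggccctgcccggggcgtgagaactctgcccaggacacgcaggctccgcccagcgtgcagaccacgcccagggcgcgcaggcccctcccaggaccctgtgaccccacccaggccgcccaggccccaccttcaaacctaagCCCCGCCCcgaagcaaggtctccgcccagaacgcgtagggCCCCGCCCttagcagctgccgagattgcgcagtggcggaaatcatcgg

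GC content within 100 bp of the centre was 59.7% for the Usp22 region and 73.1% for the Kdm1b region, against a mean of 45.3% ± 8.89 (SD, 12727 regions) over H3-only regions. It was 53.2% for the Gbf1, 52.7% for the Tars and 32.3% for the Hook2 region. The Kdm1b region also overlapped Tpmt, a thiopurine methyltransferase gene. No peak of another library was closer than 8.17 kb to the Usp22 region or 9.25 kb to that of Kdm1b.

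By location, 1578 H3-only regions (12.4%, 11.8% to 13.0%) were within 1 kb of a transcription start. Another 3.26% were in exons, 43.5% in introns and 40.8% between genes. Shared regions were at starts in 16.4% (16.0% to 16.9%), V3-only regions in 4.01% (3.80% to 4.23%), and all regions of the series in 11.4%. The median distance to a start was 13.8 kb, longer than the 10.0 kb of shared regions and shorter than the 27.7 kb of V3-only regions. Mean GC content was ordered likewise, at 48.0% in shared, 45.3% in H3-only and 39.4% in V3-only regions. H3-only regions at starts held DR3 in 9.19% (7.86% to 10.7%), and those away from starts in 13.2% (12.6% to 13.9%), with flanks at 4.50% and 3.97%.

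Between groups, neither location nor GC content separated the single-library regions. The share at starts was 15.3%, 17.6% and 4.01% with vehicle and 16.5%, 20.3% and 12.4% with 1,25(OH)2D3, so the groups overlapped. The means were 12.3% ± 7.28 and 16.4% ± 3.96 (SD, n = 3 each), a difference of 4.10 points (exact two-sided permutation p = 0.6, adjusted 0.6), which became -0.43 points without vehicle replicate 3. Mean GC content was 44.4% ± 4.40 with vehicle and 47.1% ± 1.73 with hormone (SD, n = 3 each), 2.70 points apart (exact two-sided permutation p = 0.5, adjusted 0.6) and 0.0756 points apart without vehicle replicate 3. In the deep pair alone these differences were 8.39 and 5.90 points, and between the shallow means 1.96 and 1.10 points.

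Other motifs were counted on both strands in the same windows, with exact letters. A single AGGTCA hexamer, the receptor family's core site, was in 22.7% (21.9% to 23.4%) of H3-only regions and 11.8% of their flanks, and still in 19.97% of the 11109 without a DR3 element. The core CAAAGTCCA of HNF4, a master regulator of enterocytes, was in 1.28% (1.10% to 1.49%) against 0.228% in the flanks. AGATAA, the GATA factors' site, was in 16.4% against 11.8%. The AP-1 site TGANTCA was in 12.6% (12.1% to 13.2%) against 6.08%. V3-only regions held AP-1 in 7.45% against 6.12% and GATA in 16.5% against 13.5%, so the GATA share was no higher in H3-only than in V3-only regions. TTTATGG, the site of the intestinal factors CDX, was in 3.54% (3.24% to 3.88%) of H3-only regions against 2.91% in the flanks. In V3-only regions it was in 4.01% against 3.39%. Shared regions of 1,25(OH)2D3 replicate 3 held each of these motifs more often than H3-only regions. Their shares were 31.6% for AGGTCA, 2.73% for the HNF4 core, 21.7% for GATA, 14.4% for AP-1 and 4.32% for CDX.

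At starts, H3-only regions held promoter motifs more often than those away from starts. GGGCGGGG, the KLF/SP site, was in 9.63% of the regions at starts and 0.780% of the others. The ETS site CCGGAAGT was in 3.11% and 0.395%, and the cyclic AMP element TGACGTCA in 1.39% and 0.278%. CCAATCA, the NFY site, was in 3.11% at starts and 2.34% elsewhere, with flanks of 2.60% and 2.34%. Over all H3-only regions it was in 2.44%, against 2.37% of their flanks. AP-1 went the other way, at 7.67% at starts and 13.3% elsewhere, and so did GATA, at 8.68% and 17.5%. A match here is a stretch of letters and not a measured binding of the factor.

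A peak of another library lay within 10 kb of 59.0% of H3-only regions and within 50 kb of 94.2%. Whether this is near or far for regions placed at random was not tested. The median gap to the nearest such peak was 7.65 kb (quartiles 3.01 and 17.0 kb). It was 15.6 kb to the nearest peak of 1,25(OH)2D3 replicates 1 and 2, and 12.2 kb to that of vehicle replicate 3. Within 500 bp there was a peak for 763 regions (5.995%), and 734 (5.77%) had none within 50 kb. The DR3 share was 9.96% (8.03% to 12.3%) at gaps under 500 bp and 16.9% (14.4% to 19.8%) at gaps over 50 kb. The share at starts went from 21.4% to 7.49% over the same bins. Mean GC content fell with them, from 47.2% to 42.6%, and its part in these differences was not tested.

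**Figure D4:**
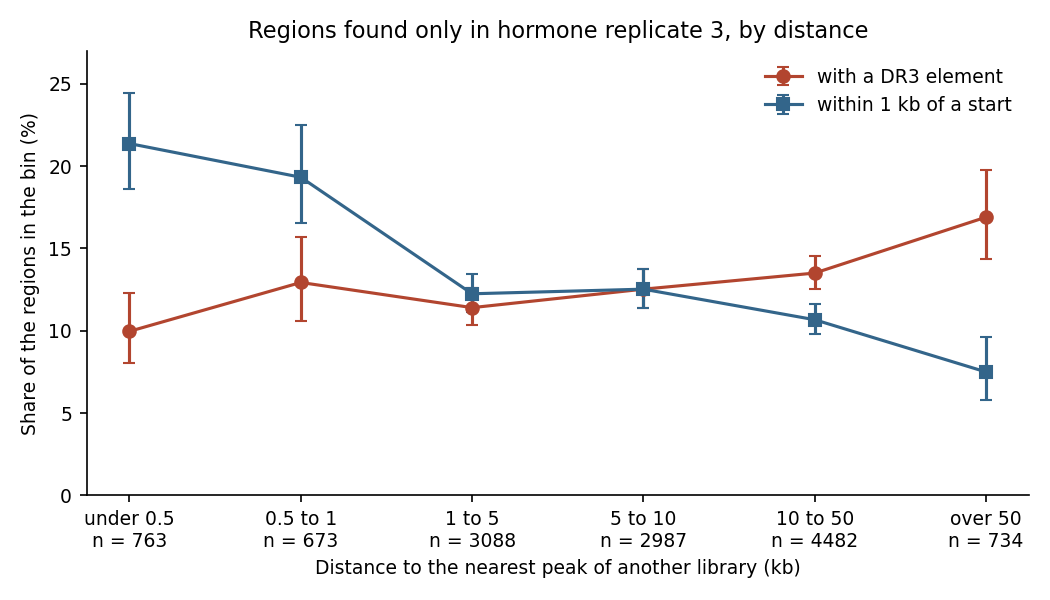
Percent of H3-only regions with a DR3 element (red) and within 1 kb of a transcription start (blue), by distance in kb to the nearest peak of any other library, with 95% Wilson intervals and the number of regions in each bin. The DR3 line goes from 9.96% in the nearest bin to 16.9% in the farthest, and the start line from 21.4% to 7.49%.

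Few regions hung on the 1 bp overlap. Only 33 H3-only regions touched another library's peak or lay within 10 bp of one, and 25 peaks outside the set overlapped another by at most 10 bp. The median overlap of the peaks outside was 262 bp. Just inside the rule were regions in introns of 1300010F03Rik, Sh3gl2 and Gm608, 1 near Taz and 1 near Ogt, with gaps of 0 or 1 bp. Just outside were peaks nearest to Tbr1, with 1 bp of overlap, and to Lpar1, Gm13225, Cdc7 and Map3k1, with 2 bp. These 10 regions had 2 to 4 mismatches to DR3, so none counted as holding one.

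H3-only regions were spread over much of the gene space. Of 22350 protein-coding genes, 12965 (58.0%) had one within 50 kb of the gene body, and 4386 (19.6%) had one inside it. The median gene had 1 such region. All but 288 of these 12965 genes also had a region of some other kind within 50 kb. Another count asked which genes had an H3-only region while lacking any region found in at least 2 of the 3 hormone libraries, and 1870 genes (8.37%) met it. The counts for gene lists below are read against these shares.

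Of 162 genes in 15 lists, 116 (71.6%) had an H3-only region within 50 kb. Calcium transport, with 9 of 14 genes, and vitamin D metabolism and receptor, with 8 of 12, were near the 58.0% of all genes. The shares were higher for phosphate and metal transport (17 of 19), intestinal transcription factors (11 of 13), enterocyte function (16 of 20) and bile acid and xenobiotic handling (15 of 19). They were lower for neuronal (1 of 4), Paneth cell (2 of 5), goblet cell (3 of 6) and stromal genes (3 of 6). Immune genes, which enterocytes are not known for, had 5 of 6, and enteroendocrine and tuft cell genes had 5 of 7. Stem cell and Wnt genes and tight junction and cell adhesion genes had 7 of 10 each, and cell cycle and growth control genes 7 of 11. The median gene had 2 H3-only regions in the phosphate and metal, transcription factor and immune lists, 0.5 in the goblet cell and stromal lists and 0 in the Paneth cell and neuronal lists. In the other 8 lists it had 1, as did the median of all genes. Genes differ in length and in how many regions of any kind lie near them (a mean of 6.10 other regions per gene over all genes, 12.7 in the enterocyte list and 3.60 in the Paneth cell list), and the part of this in the counts was not tested.

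**Figure D5:**
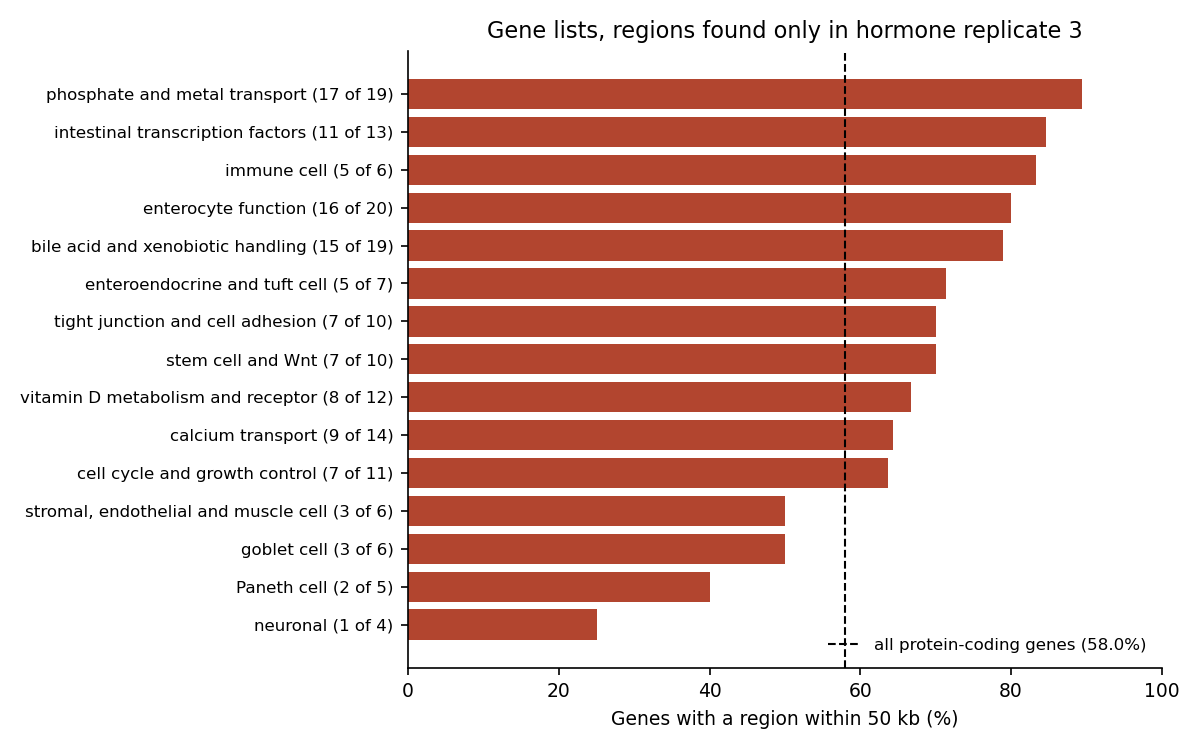
Percent of the genes of each list with an H3-only region within 50 kb of the gene body, with the number of genes in brackets. The dashed line is the 58.0% of all protein-coding genes; phosphate and metal transport is the highest at 17 of 19 and neuronal the lowest at 1 of 4.

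Among calcium transport genes, the channels take calcium up, S100g and Calb1 carry it as calbindins, and the plasma membrane pumps export it. Atp2b1, the main pump of enterocytes, had the most H3-only regions, 6, of which 4 were in the gene, beside 14 other regions. Peaks within 50 kb of it numbered 2, 3 and 8 with vehicle and 7, 10 and 17 with 1,25(OH)2D3 (replicates 1 to 3), where the H3-only regions account for 6 of the 17. Its H3-only region nearest the start was 25.1 kb inside the gene and had 2 mismatches to DR3. Trpv6, the apical calcium channel, and its neighbour Trpv5 shared 2 regions. The first was in the Ephb6 gene, within 1 kb of an annotated transcription start and 16.5 kb past the Trpv6 start. The second was in the Trpv5 gene, 19.02 kb upstream of the Trpv6 start. S100g, the intestinal calbindin, had 1, centred 3.37 kb past its start beyond the gene's end, and it was 0.127 kb from a peak of another library. S100g had 2, 2 and 3 peaks within 50 kb with vehicle and 5 in each hormone library, the last count including the H3-only region.

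The remaining calcium genes had 1 or 2 regions. Atp2b2, a pump best known from neurons, had 2, including an intronic region 33.0 kb inside the gene with a DR3 element of 1 mismatch. Atp2b4 had 1 in an intron 18.2 kb inside. Calb1 had 1, 52.3 kb past its start in an intron of Decr1. Cldn15, a pore-forming tight junction protein, had 1 in an exon of 4933404O12Rik, 30.1 kb upstream. Stc1, which encodes the hormone stanniocalcin, had 1 at 21.1 kb upstream, 66.9 kb from any other library's peak. Casr, Cldn2, Cldn12 and Slc8a1 had none, although Cldn2 had 10 regions of other kinds.

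Among genes of vitamin D metabolism and action, the H3-only region nearest to its own gene's start was 1.50 kb upstream of Rxra, and the others named below were 15.5 kb or more away. Cyp24a1 had 18 other regions and 1 H3-only region, 33.3 kb upstream at a list percentile of 20.03. Peaks within 50 kb of Cyp24a1 numbered 5, 4 and 10 with vehicle and 9, 10 and 9 with 1,25(OH)2D3, so the groups overlapped. Rxra, which encodes the receptor's partner, had 4: 1 at 1.50 kb upstream with a percentile of 73.8 and 3 in introns, 17.0, 39.0 and 57.2 kb inside. Vdr itself had 1, 41.9 kb upstream, at a percentile of 67.3. Cyp27b1, which makes the hormone, had 0 peaks within 50 kb in each of the 3 vehicle libraries and 1, 1 and 2 in 1,25(OH)2D3 replicates 1 to 3, where both replicate 3 peaks are H3-only regions and so absent elsewhere by the rule. Its 2 H3-only regions were each within 1 kb of a transcription start, 15.5 and 17.5 kb away. They lay in the genes Cdk4, a cell cycle kinase, and Tsfm, a mitochondrial elongation factor. Cyp27a1, a sterol hydroxylase that can act on vitamin D, had 2, and 1 of them held a DR3 element with 0 mismatches in an intron of Ttll4, 41.9 kb upstream. The endocytic receptors Cubn and Lrp2 had 2 each, and Rxrb had 1, nearest to H2-K1.

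The elements of this group that had at most 1 mismatch are given for 4 genes, to set beside those shown first. Lines are as above, named for the list gene, and the Trpv6 line is in the region inside Ephb6.
Cyp27a1, chr1:74718167-74718221, minus strand: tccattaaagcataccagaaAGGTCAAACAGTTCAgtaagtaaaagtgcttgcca
Trpv6, chr6:41569919-41569973, minus strand: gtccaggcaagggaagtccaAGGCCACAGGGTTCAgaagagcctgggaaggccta
Rxra, chr2:27549013-27549067, minus strand: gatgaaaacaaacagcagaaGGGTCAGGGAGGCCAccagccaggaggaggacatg
Atp2b2, chr6:113959500-113959554, minus strand: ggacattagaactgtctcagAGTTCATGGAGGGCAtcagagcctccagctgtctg

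The list percentiles of these 4 regions were 11.3 for Cyp27a1, 10.97 for Trpv6, 22.0 for Rxra and 12.5 for Atp2b2. All were thus in the lower part of the list.

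Genes with the most regions in the phosphate and metal, bile acid and xenobiotic, enterocyte and transcription factor lists are named next. Cnnm4 and Trpm6, which move magnesium, had 6 each, and Slc34a2, a phosphate transporter, had 5. None of the Cnnm4 regions was in the gene body, and the nearest to its start, at a list percentile of 53.5, was within 1 kb of it. Abcb1a and Abcc3, which export drugs and conjugates, had 6 each, and Abcc4 had 4. Apob, the protein of chylomicrons, had 4, while Npc1l1, the cholesterol uptake protein, and Vil1, a brush border actin bundler, had 3 each. The Vil1 region nearest to the gene's start was intronic and high in the list, at a percentile of 89.9. Gata4 had 3.

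Among growth and adhesion genes, Tcf7l2, a Wnt effector, had 7 regions, 5 of them in the gene, beside 27 other regions. Cd44 and Myc had 2 each, and the Cd44 region nearest to its start was intronic with DR3 at 1 mismatch. Egfr had 4, Foxo3 2 and Ccnd1 1. Cgn and F11r, of tight junctions, had 4 each. The F11r region nearest to its start was at a transcription start, at a percentile of 81.9 and 0.141 kb from another library's peak.

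Genes that mark other cells of the intestine had between 0 and 3 regions. Clca3, a goblet cell gene, had 2 and Spdef 1. Reg3g had 1, Chga 1 and Neurod1 2. Cd3e had 3, and Cd68 and Cd8a 2 each. Col1a1 had 1, Des 3 and Snap25 2. Without expression values, the cells from which any of these peaks came cannot be told apart.

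For 7 of the 162 listed genes (Stc1, Bmi1, Fcgbp, Lyz1, Dclk1, Ptprc and Kdr) an H3-only region was present and no region of at least 2 hormone libraries was within 50 kb, beside the 8.37% of all genes. Dclk1, a tuft cell marker, had 5 peaks in vehicle replicate 3, 1 in 1,25(OH)2D3 replicate 3 and 0 in the other 4 libraries. Ptprc, the pan-leukocyte marker CD45, had 6, 1 and 0 in the same way. Lyz1, a lysozyme of Paneth cells, had 1 in vehicle replicate 3 and 2 in 1,25(OH)2D3 replicate 3. For these 3 genes and for Stc1 and Kdr, only the 2 deep libraries had peaks.

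The 10 genes with the most H3-only regions were long in the annotation. Gm20388, annotated over 4435 kb, had 42, and Fgfr2, annotated over 3009 kb, had 35. Next were Macrod2 with 17 over 1998 kb, Arfip1 and Dpyd with 15 each over 1391 and 871 kb, and Auts2 and Nckap5 with 14 each over 1106 and 917 kb. Atxn1 had 13 over 410 kb, Pde4d 12 over 1504 kb and Atp8a1 12 over 229 kb. Other regions were more numerous than H3-only regions near each of these genes, from 26 near Atp8a1 to 238 near Gm20388. Between 0 (Atxn1) and 4 (Fgfr2 and Dpyd) of each gene's H3-only regions held DR3.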

How the data were processed

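VDR ChIP-seq peak lists of 6 libraries (3 vehicle, 3 1,25(OH)2D3, grouped by title) were used. Reads were aligned with Bowtie to mm9 and peaks called with HOMER, per the submitters' processing notes; versions are not given in the sources used here. Each peak list came from HOMER's factor mode on 1 library against the same input, per the file headers, with a false discovery rate of 0.001, at least 4-fold over input and over the surrounding 10 kb, Poisson p of 0.0001 and a clonal limit of 2. The deposited lists hold peak starts and ends, and the deposited score is 1 for every peak, so list order stood in for height; it is not a measured occupancy.

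Merging, motif search and tests were done here in Python 3.11.15 (numpy 2.4.6, scipy 1.17.1; figures matplotlib 3.10.9). Genes came from GENCODE version 1 (Ensembl 65, NCBI build 37, which is mm9). The base at the centre gave a region's location: near a start (1 kb), then exon, intron or between genes. The nearest gene is the protein-coding gene with the closest outermost start, and distances run from it. Group values were compared by exact permutation over 3 against 3 libraries; shares carry 95% Wilson intervals. The motif search was tested on simulated sequence. Replicate numbers were checked as pairs by correlating presence of peaks, as deviations from group means, over the 86995 merged regions. Same-numbered libraries correlated at -0.113, 0.0009 and -0.184. A merged region needed a peak in at least 1 library and depth differed, so these values cannot settle whether libraries were paired. The main comparisons used no pairing.

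The members and the gene lists were chosen with earlier results of these data known. Named were the 10 regions highest in the list, the 10 highest with 0 mismatches, the 5 highest at protein-coding starts, the 10 genes with most regions, calcium and vitamin D genes with a region, 3 genes per other list, and the 5 regions on either side of the overlap rule. Peaks on other chromosomes and the input library, which has no list here, were left out. Values of some regions and genes that this rule named are not reported here.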

Additional observations from a re-analysis of the deposited data

How the results depend on the processing

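The number of H3-only regions stayed between 11949 and 14003 when peaks within 100 or 500 bp counted as shared or when 50% coverage was required, and between 12859 and 16403 with each other library left out. It was 398 with every list cut to the shortest and 4221 with only this list cut to the longer of the other two hormone lists. The DR3 share was 2.20% with 0 mismatches, 48.9% with 2 allowed, 7.43% within 50 bp and 16.2% within 150 bp, where the flanking share moves as well by construction; leaving out a library gave 12.5% to 13.5%. The share at starts was 9.16% within 500 bp, 17.3% within 2 kb and 9.63% for protein-coding starts, and 12.2% to 14.4% without 1 library. The share of genes was 31.7% at 10 kb, 73.2% at 100 kb and 19.6% in the gene body, and 58.2% to 65.3% without 1 library.

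The group difference in DR3 share kept its direction under all 11 alternatives, from 1.42 points (0 mismatches) to 11.6 points (2 allowed), and lay between 5.96 and 7.83 points without 1 library. None could pass 0.05. The difference in the share at starts ran from -0.431 to 6.92 points without 1 library and was negative only without vehicle replicate 3; the cause was not tested. That in GC content ran from 0.0756 to 4.24 points. With the replicate block, by sign changes of the 3 same-numbered differences (smallest p 0.25), the exact p was 0.25 for DR3 (6.12 points), 0.25 for starts (4.10 points) and 0.5 for GC content (2.70 points). No call at 0.05 was possible with or without the block. The order by peak number, added after the data were seen, again gave lower DR3 in H3-only than in shared regions in all 10 deciles. The lists hold no tag counts, so peak height is limited to list order.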

Other observations

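H3-only regions were spread unevenly over chromosomes. On chromosome X there were 277, or 1.66 per Mb, while the autosomes had 4.28 per Mb (chromosome 14) to 6.54 per Mb (chromosome 11). Shared regions had the same low value on X, at 3.61 per Mb, and H3-only regions made up 31.5% of the list there. On the autosomes that share ran from 26.7% (chromosome 19) to 33.4% (chromosome 1).

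Some H3-only regions lay near each other. Another one was within 10 kb for 1998 (15.7%), in 952 groups, of which 9 held 4 or more. The largest group held 5, at chr2:122625908-122643168 of mm9. Outside the chromosomes used, peaks on chromosome Y numbered 25 in vehicle replicate 3 and 18 in 1,25(OH)2D3 replicate 3, with 0 in each of the other 4 libraries.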
